A study of Mus musculus with 6 samples.

Results

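Transcripts of the immunoglobulin genes and of Jchain were examined in white adipose tissues (WATs) of control and Ntsr2 AKO mice. The genes were chosen by symbol (Ighv, Ighg, Ighm, Igha, Ighj, Igkv, Igkc, Igkj, Iglv, Iglc and Jchain) and by detection, as those above 0 in at least 2 of the 6 mice, whichever their genotype. This left 81 of the 133 immunoglobulin rows, out of 21456 genes in the table. The series compared 3 control mice (Ntsr2 flox/flox, replicates 3 to 5) with 3 Ntsr2 AKO mice (Adipoq-cre::Ntsr2 flox/flox, replicates 3 to 5), and each replicate was a separate mouse. All 6 mice carried the floxed Ntsr2 alleles, with loxP before the first and after the last exon. Only the Ntsr2 AKO mice carried Cre, driven by the promoter of the adiponectin gene Adipoq, so that the deletion was aimed at adipocytes and not at lymphocytes. The mice were fed chow, and their age, their sex and the fat depot were not given in the sources used here.

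An antibody is built from heavy chains (the Igh locus on chromosome 12) and light chains of the kappa (Igk, chromosome 6) or lambda (Igl, chromosome 16) type. Each developing B cell joins 1 variable (V) segment to a joining (J) segment, and in heavy chains also to a D segment. The joined exon is spliced to a constant region that sets the class, with Ighm for IgM, Ighg genes for IgG and Igha for IgA. Jchain, on chromosome 5, encodes the small chain that links IgM into pentamers and IgA into dimers. Plasma cells transcribe these genes at very high levels, so a few of them can dominate the immunoglobulin reads of a whole tissue. WAT also holds B-1 cells, a B cell type that makes natural IgM from a narrow set of V segments. In bulk tissue, a difference in the number of such cells and a difference in their RNA per cell cannot be told apart.

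The germline ends of the V segments that the results turn on are shown first. The counts are per gene and do not hold the joined sequence of a B cell, so they do not tell clones apart. They are the last 90 bases of the coding V exon, from the GENCODE M21 transcripts on GRCm38. The capitals start at the codon of the conserved cysteine and mark the germline part of the third hypervariable loop (CDR3). Ighv11-2 (chr12:114048241-114048330, minus strand) and Igkv14-126 (chr6:67896553-67896642, plus strand) are the heavy and light segments known from B-1 cells that bind phosphatidylcholine.
Ighv11-2: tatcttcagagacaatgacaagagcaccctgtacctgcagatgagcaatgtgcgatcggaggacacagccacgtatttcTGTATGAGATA
Igkv14-126: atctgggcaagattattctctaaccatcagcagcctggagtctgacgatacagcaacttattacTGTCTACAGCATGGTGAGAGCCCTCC
Igkv3-2 (chr6:70698978-70699067, plus strand) and Igkv14-111 (chr6:68256780-68256869, plus strand) are other kappa segments, the second of which shared 90.0% of its last 250 bases with Igkv14-126.
Igkv3-2: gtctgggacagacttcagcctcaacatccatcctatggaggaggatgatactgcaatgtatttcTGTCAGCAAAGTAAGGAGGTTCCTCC
Igkv14-111: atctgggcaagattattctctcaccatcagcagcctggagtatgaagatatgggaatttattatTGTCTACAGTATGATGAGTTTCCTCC
Ighv1-81 (chr12:115920279-115920368, minus strand) and Ighv6-3 (chr12:114391712-114391801, minus strand) are heavy segments of other families.
Ighv1-81: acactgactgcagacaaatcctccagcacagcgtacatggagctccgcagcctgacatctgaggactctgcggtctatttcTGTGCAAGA
Ighv6-3: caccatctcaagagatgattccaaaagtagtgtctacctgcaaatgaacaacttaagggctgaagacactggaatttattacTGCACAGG
Iglv1 (chr16:19085017-19085106, minus strand) and Iglv2 (chr16:19260401-19260490, minus strand) are lambda segments that agreed in 97.2% of their last 250 bases.
Iglv1: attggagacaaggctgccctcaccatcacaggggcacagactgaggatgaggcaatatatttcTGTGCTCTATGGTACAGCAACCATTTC
Iglv2: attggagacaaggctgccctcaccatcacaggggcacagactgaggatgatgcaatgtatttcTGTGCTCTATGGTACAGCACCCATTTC
For Ighv11-2 the nearest annotated segment was Ighv11-1 (99.2% of 250 bases), which was not analysed here. Reads of such near copies can be split between them by the authors' counting, so the value of any single V gene is uncertain. The lambda reads in particular are better read as the sum of both segments.

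Every value below is a normalized count, which is the read number of a gene after division by 1 size factor per mouse. Whole reads could be recovered from it, and their totals ranged from 54085088 to 66098226 reads per mouse. A read is worth close to 1 normalized count, so values of a few counts rest on a few reads. Ntsr2 had 83.8, 64.0 and 153 normalized counts in control mice 3, 4 and 5 and 3.10, 8.29 and 0 in Ntsr2 AKO mice 3, 4 and 5, which matches the labels. Adipocyte transcripts were abundant in all 6 mice, with Adipoq between 163803 and 220865 normalized counts. A list of 8 skeletal muscle genes summed to 2496577 in control 5, to 79710 and 176983 in Ntsr2 AKO 4 and 5, and to between 509.6 and 1567 in the other 3 mice. Control 3 had the highest level of all 8 genes of a T cell list and of 14 of 18 genes of a B cell list. The part of these differences between the mice in the immunoglobulin values was not tested.

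As a sum over all members, immunoglobulin transcripts overlapped between the groups. Ighm was left out of a further sum after the values were seen. That sum was higher in each Ntsr2 AKO mouse than in each control mouse, while many single members overlapped. The sum of all members without Ighm was 766, 371 and 1595 normalized counts in control mice 3, 4 and 5 and 13272, 3520.0 and 3514 in Ntsr2 AKO mice 3, 4 and 5. The groups did not overlap, and the lowest Ntsr2 AKO mouse was 2.20 times the highest control mouse. The difference of the group means was 2.83 on the log2 scale, or 7.12-fold (exact permutation test, two-sided, p = 0.10; no smaller p can be had from 3 against 3). This p takes no account of the choice to leave out Ighm, or of members that met the rule on detection only through Ntsr2 AKO mice. Ntsr2 AKO 3 stood 3.77 times above the next mouse. Without it the difference was 2.19, or 4.57-fold (exact permutation test, p = 0.20). With Ighm included, the total was 7845, 15933 and 12046 in controls and 33374, 11027 and 21519 in Ntsr2 AKO mice, and the groups overlapped (difference 0.80 on the log2 scale, exact permutation test, p = 0.30).

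**Figure D1:**
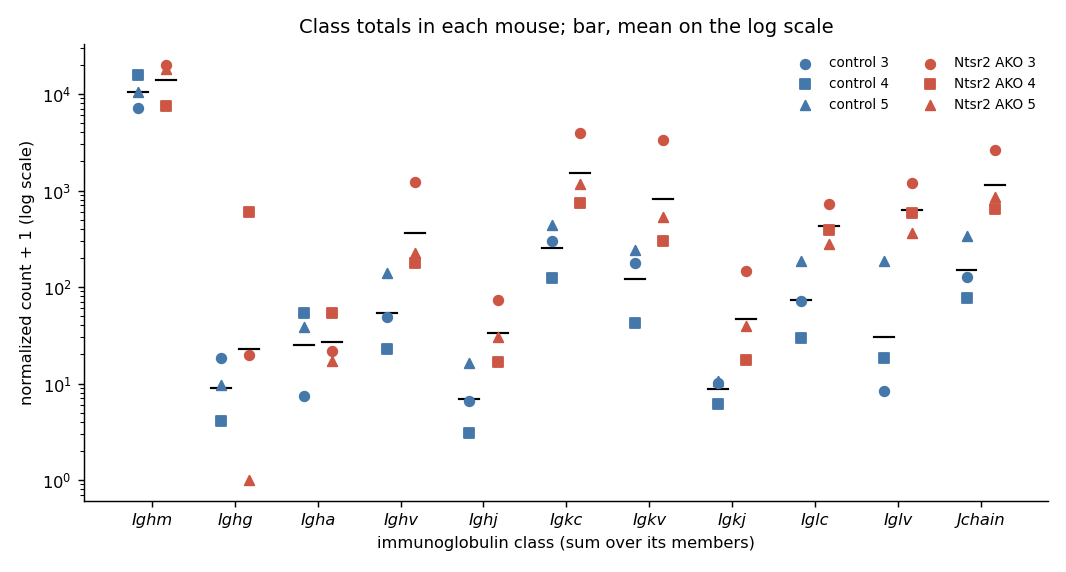
Summed normalized counts + 1 (log scale) of the members of each immunoglobulin class in each mouse (blue, control; red, Ntsr2 AKO; marker shape, replicate number; bar, group mean on the log scale). In 8 of the 11 classes the 3 Ntsr2 AKO mice sit above the 3 control mice, while the Ighm, Ighg and Igha classes overlap.

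The members fell into 11 classes, and in 8 of them (Ighv, Ighj, Igkc, Igkv, Igkj, Iglc, Iglv and Jchain) the 3 Ntsr2 AKO mice all lay above the 3 controls. Each of these had the smallest exact permutation p of 0.10, and an adjusted p of 0.138 over the 11 classes, so none passed 0.05 and with 3 mice against 3 none could. The classes are not independent of each other, since the same cells transcribe a V, a J and a constant gene. The Ighv, Igkv, Igkj and Iglv sums also include members that met the rule on detection only through Ntsr2 AKO mice. Ntsr2 AKO 3 was the highest mouse in 9 classes and control 4 the lowest in 7.

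Igkc encodes the constant region of the kappa light chain. Its normalized counts were 298, 123 and 441 in control mice 3, 4 and 5 and 3934, 745 and 1170 in Ntsr2 AKO mice 3, 4 and 5. The means were 287 ± 160 (SD, n = 3) and 1950 ± 1731 (SD, n = 3). The groups were apart, with a log2 difference of 2.57 (5.94-fold), of which 1.88 (3.68-fold) remained without Ntsr2 AKO 3. Iglc2, a constant region of the lambda chain, had 70.9, 28.9 and 183 in controls and 724, 385 and 279 in Ntsr2 AKO mice, also without overlap. Its log2 difference was 2.54 (5.83-fold).

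Jchain is transcribed in antibody-secreting cells and little in resting B cells. It had 125, 76.3 and 336 normalized counts in controls and 2643, 638 and 859 in Ntsr2 AKO mice, with means of 179 ± 138 and 1380 ± 1099 (SD, n = 3). The groups did not overlap, and the log2 difference was 2.93 (7.62-fold). Without Ntsr2 AKO 3 it was 2.32 (4.99-fold). The ratio of Jchain to Igkc stayed between 0.420 and 0.857 in the 6 mice, and both genes put the 6 mice in the same order.

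Ighm encodes the constant region of IgM and was by far the most abundant member. The extent that the authors' annotation gave this row was not known here. Whether all its reads are IgM transcripts was not tested. Its normalized counts were 7079, 15562 and 10450.4 in controls and 20102, 7507 and 18005 in Ntsr2 AKO mice. The groups overlapped, with Ntsr2 AKO 4 near control 3 at the low end and control 4 near Ntsr2 AKO 5 at the high end (log2 difference 0.41, exact permutation test, p = 0.50). Ighm did not follow the light chains. It was 23.7, 127 and 23.7 times Igkc in controls and 5.11, 10.1 and 15.4 times Igkc in Ntsr2 AKO mice, and control 4, with the lowest Igkc, had the third highest Ighm. Ighm made up 90.2, 97.7 and 86.8% of all member counts in controls and 60.2, 68.1 and 83.7% in Ntsr2 AKO mice.

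Per kilobase of annotated exon, the mean level of Ighm in control mice was 5849 normalized counts, against 540.2 for Igkc, 154 for Iglc2 and 71.2 for Jchain. The exon lengths are those of GENCODE M21 and may differ from the extents that the authors counted. In Ntsr2 AKO mice the levels were 8062 for Ighm, 3665 for Igkc, 756 for Iglc2 and 548 for Jchain. The order of these means was thus the same in both groups, and the ratio of Ighm to each of the others was smaller in the Ntsr2 AKO mice. The ranges of the per-mouse values of Iglc2 and Jchain overlapped in both groups. Those of Igkc and Iglc2 also overlapped in controls, and those of Ighm and Igkc in Ntsr2 AKO mice.

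Of the isotypes made after class switching, Igha, Ighg2b and Ighg3 were analysed. Their sum was 23.9, 55.7 and 46.0 normalized counts in controls and 39.2, 657 and 16.2 in Ntsr2 AKO mice, so it was low except in Ntsr2 AKO 4. Igha had 6.44, 52.6 and 37.4 normalized counts in controls and 20.6, 52.9 and 16.2 in Ntsr2 AKO mice, and the groups overlapped (log2 difference 0.13, exact permutation test, p = 0.90). Reads of the IgG genes Ighg2b and Ighg3 were held almost wholly by 1 mouse. Ighg3 had 3.68, 3.09 and 3.84 in controls and 8.26, 409 and 0 in Ntsr2 AKO mice. Ighg2b followed it with 13.8, 0 and 4.80 against 10.3, 195 and 0. In both genes Ntsr2 AKO 4 stood apart and Ntsr2 AKO 5 had no reads. The Ighg class as a whole had a log2 difference of 1.34 (exact permutation test, p = 0.70), and without Ntsr2 AKO 4 it was -1.02. Of the other isotypes, Ighd, Ighg1 and Ighg2c were not analysed here.

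**Figure D2:**
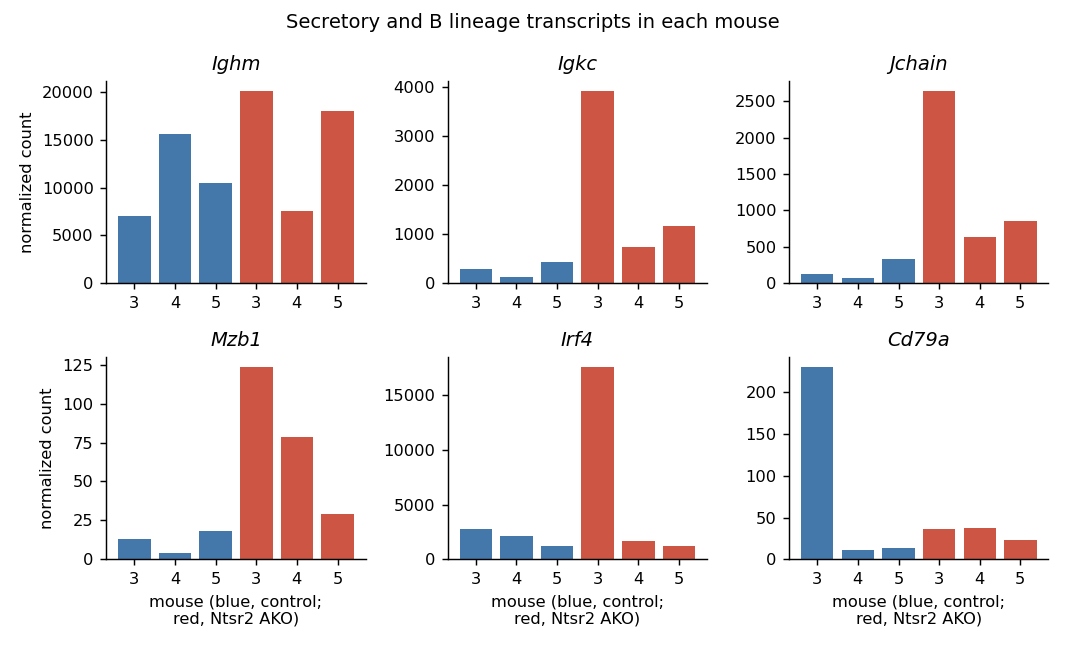
Normalized counts (linear axes from 0) of Ighm, Igkc, Jchain, the plasma cell genes Mzb1 and Irf4 and the B cell gene Cd79a in each mouse (blue, control; red, Ntsr2 AKO). Igkc, Jchain and Mzb1 are higher in each Ntsr2 AKO mouse, Ighm overlaps, Irf4 is high in Ntsr2 AKO 3 alone, and Cd79a is highest in control 3.

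The V segments carried the same difference with a different make-up in each mouse. The 23 Ighv members summed to 47.9, 21.7 and 140.1 normalized counts in controls and to 1211, 177 and 225 in Ntsr2 AKO mice (log2 difference 2.76, or 6.78-fold; 1.90, or 3.72-fold, without Ntsr2 AKO 3). The 39 Igkv members summed to 178, 41.3 and 239.8 in controls and to 3310.3, 302 and 536 in Ntsr2 AKO mice (2.74, or 6.67-fold; 1.72, or 3.30-fold, without Ntsr2 AKO 3). The 3 Iglv members summed to 7.36, 17.5 and 184 in controls and to 1193, 584 and 360.3 in Ntsr2 AKO mice, the widest of the class differences (4.37, or 20.6-fold; 3.91 without Ntsr2 AKO 3). None of these sums overlapped between the groups, although for Ighv and Igkv the lowest Ntsr2 AKO mouse was only 1.27 and 1.26 times the highest control, control 5. The sums include members that met the rule on detection only through Ntsr2 AKO mice, such as Ighv1-55, Ighv1-22, Igkv10-94 and Iglv3. Ntsr2 AKO 4 had 23.8 normalized counts of Ighv1-55 and 11.4 of Ighv1-22. Whether the sums stay apart without such members was not tested.

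The leading V genes differed from mouse to mouse. Ighv11-2, whose end is shown above, had 0, 0 and 46.0 normalized counts in controls and 353, 7.26 and 36.4 in Ntsr2 AKO mice, and it was the leading Ighv gene of control 5 (32.9% of its Ighv counts) and of Ntsr2 AKO 3 (29.2%). Igkv14-126, its usual partner in B-1 cells, had 17.5, 0 and 71.0 in controls and 1090.0, 25.9 and 98.2 in Ntsr2 AKO mice. It was the leading Igkv gene of control 5 (29.6%), Ntsr2 AKO 3 (32.9%) and Ntsr2 AKO 5 (18.3%). Both genes overlapped between the groups, and both were led by Ntsr2 AKO 3 with control 5 among the next mice. In Ntsr2 AKO 4 the pair was a small part of the V counts, with 4.09% of Ighv and 8.59% of Igkv. Controls 3 and 4 were led by other segments at low counts. Igkv5-48 (32.2 normalized counts) and Ighv7-1 (8.28) led in control 3, and Igkv1-135 (29.9, or 72.5% of the Igkv counts) and Ighv1-53 (9.28) led in control 4. These counts come from whole tissue, so whether the heavy and light segments were in the same cells was not tested.

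**Figure D3:**
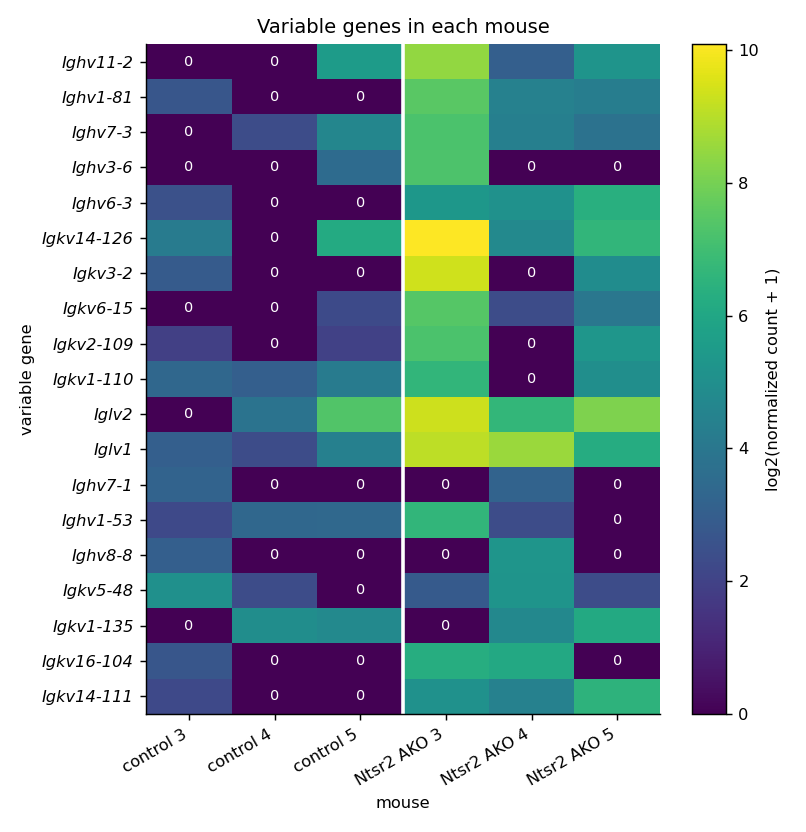
Log2(normalized count + 1) of 19 named variable genes (rows) in each of the 6 mice (columns; a white 0 marks no reads; the white line divides control from Ntsr2 AKO). Most genes are brightest in Ntsr2 AKO 3, and Igkv14-126 there is the highest of all at 1090.0 normalized counts.

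Several V genes had reads in 1 or 2 mice and few elsewhere. Igkv3-2 had 652 normalized counts in Ntsr2 AKO 3 and 29.3 in Ntsr2 AKO 5, against 6.44, 0 and 0 in controls and 0 in Ntsr2 AKO 4. Ighv3-6 had 154 in Ntsr2 AKO 3, 10.6 in control 5 and 0 in the other mice. Igkv16-104 led the Igkv genes of Ntsr2 AKO 4 with 67.4, next to 77.4 in Ntsr2 AKO 3 and 0 in Ntsr2 AKO 5. Ighv8-8 led the Ighv genes of the same mouse with 37.3 and was at 7.36 in control 3 and 0 in the other 4 mice. These single-mouse peaks are a description of the animals and give no difference between the genotypes.

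In contrast, Ighv6-3, Igkv14-111 and Ighv1-81 were present in all 3 Ntsr2 AKO mice and low in controls, and they are set together here for that pattern. Ighv6-3 had 4.60, 0 and 0 normalized counts in controls and 39.2, 33.2 and 82.0 in Ntsr2 AKO mice, where it was the leading Ighv gene of Ntsr2 AKO 5. Igkv14-111 had 3.68, 0 and 0 in controls and 33.0, 20.7 and 92.1 in Ntsr2 AKO mice. Ighv1-81 had 5.52, 0 and 0 against 183, 20.7 and 18.2. They averaged 10 normalized counts or more only through the Ntsr2 AKO mice, so their separation describes how they were picked. Their limma log2 fold changes of 4.77 (SE 0.95), 4.62 (SE 1.0) and 4.51 (SE 1.25) were computed on log2(normalized count + 1) and depend on that pseudocount, since the control values rest on at most a few reads.

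The lambda segments varied between the mice as well. Iglv1 had 7.36, 4.13 and 20.1 normalized counts in controls and 549, 378 and 75.9 in Ntsr2 AKO mice, without overlap (limma log2 fold change 4.70, SE 0.87). Iglv2 had 0, 13.4 and 164 in controls and 634, 102 and 284 in Ntsr2 AKO mice, and control 5 lay above Ntsr2 AKO 4. Iglv3 was at 0 in the 3 controls and in Ntsr2 AKO 5, at 10.3 in Ntsr2 AKO 3 and at 104 in Ntsr2 AKO 4. The lambda share of all light chain V counts was 3.98, 29.8 and 43.4% in controls and 26.5, 65.9 and 40.2% in Ntsr2 AKO mice, and these shares overlapped. Ntsr2 AKO 4 had the highest lambda share, the lowest ratio of Igkc to Iglc2 (1.94, against 2.41 to 5.44 in the other mice) and nearly all Ighg2b and Ighg3 reads.

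The J segments are short, and their counts were low. The 2 with the highest mean are printed from the same annotation, with Igkj1 added because controls had no reads of it, and with capitals on the codons of the conserved Phe-Gly-X-Gly (kappa) or Trp-Gly-X-Gly (heavy) motif, where X is any residue. They are Ighj1 (chr12:113429781-113429833, minus strand), Igkj2 (chr6:70722916-70722954, plus strand) and Igkj1 (chr6:70722562-70722599, plus strand).
Ighj1: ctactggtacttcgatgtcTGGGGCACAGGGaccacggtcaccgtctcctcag
Igkj2: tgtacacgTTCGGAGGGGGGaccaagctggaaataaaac
Igkj1: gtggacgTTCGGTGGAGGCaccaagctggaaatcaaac
Ighj1 had 4.60, 1.03 and 4.80 normalized counts in controls and 50.6, 8.29 and 9.11 in Ntsr2 AKO mice. Igkj2 had 6.44, 2.06 and 6.71 in controls and 89.8, 12.4 and 21.3 in Ntsr2 AKO mice, and Igkj1 had 0, 0 and 0 in controls and 37.2, 4.15 and 2.02 in Ntsr2 AKO mice. Since Igkj1 was picked for its zeros in controls, its separation is no result. Of the 6 other J members, Ighj4 was also higher in each Ntsr2 AKO mouse, and Ighj2, Ighj3, Igkj3, Igkj4 and Igkj5 overlapped, with Igkj5 at 0.920, 3.09 and 2.88 in controls and 16.5, 0 and 1.01 in Ntsr2 AKO mice. The Ighj sum separated the groups only narrowly, by a factor of 1.01 between Ntsr2 AKO 4 (15.5) and control 5 (15.3).

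The number of V genes with any reads was 39, 12 and 44 in controls and 72, 39 and 43 in Ntsr2 AKO mice, out of 117 V rows. The groups overlapped (difference of means 19.7, exact permutation test, p = 0.50), and the numbers were the same after each library was thinned to 54085088 reads. Counting only V genes at 10 or more normalized counts gave 9, 3 and 16 in controls and 54, 23 and 21 in Ntsr2 AKO mice, without overlap (difference 23.3, exact permutation test, p = 0.10). Of the 65 V members, 40 were highest in Ntsr2 AKO 3, 8 in Ntsr2 AKO 4, 9 in Ntsr2 AKO 5, 5 in control 5, 3 in control 3 and 0 in control 4.

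**Figure D4:**
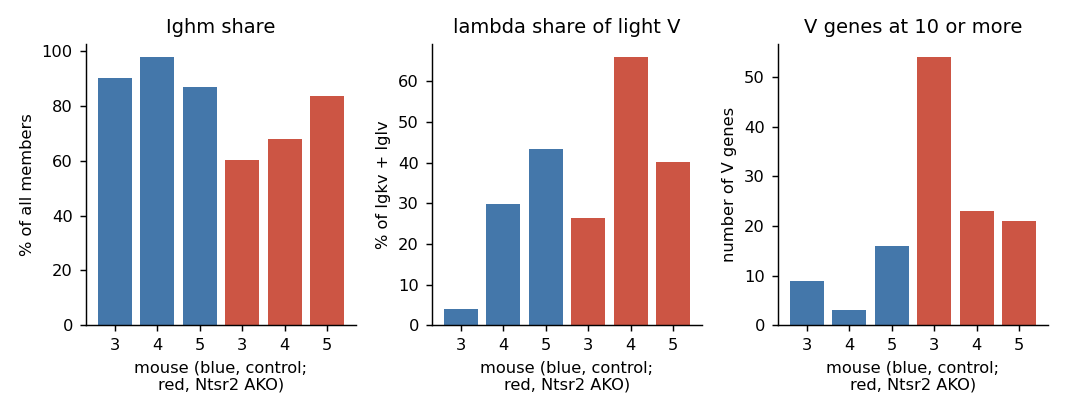
Share of Ighm in all member counts (%), share of lambda in light chain V counts (%) and number of V genes at 10 or more normalized counts, in each mouse (bars from 0; blue, control; red, Ntsr2 AKO). The Ighm share is lower and the number of V genes higher in each Ntsr2 AKO mouse than in each control, while the lambda share overlaps.

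At the edge of the detection rule, 52 immunoglobulin rows, all V genes, had reads in a single mouse and were left out. They numbered 7, 3 and 8 in controls and 18, 7 and 9 in Ntsr2 AKO mice, and the highest of them was Igkv8-16 at 78.8 normalized counts. The 28 members just inside, with reads in exactly 2 mice, reached at most 154 (Ighv3-6), and their highest values had a median of 27.4, against 7.29 for the rows left out.

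A gene-by-gene test was made across the whole table for the 16157 genes that averaged 10 normalized counts or more. Only 39 of the 81 members reached that mean, and many did so through Ntsr2 AKO 3, so counts over these 39 describe them and support no statement on all members. With limma on log2(normalized count + 1), 0 of the 39 passed an adjusted p of 0.05, where 0.00619% of all genes (1 gene) did. At an unadjusted p under 0.05, 10 of the 39 were higher and 0 lower, against 3.08% of all genes higher. The groups did not overlap, with Ntsr2 AKO higher, in 10 of the 39 (25.6%), against 6.82% of all genes, and 0 members were lower without overlap, against 8.16%. These 10 were Ighj1, Ighv1-81, Ighv6-3, Igkc, Igkj2, Igkv6-15, Igkv14-111, Iglc2, Iglv1 and Jchain. The median log2 fold change was 2.54 over the 39 members and -0.01 over all genes, and 38 of the 39 were above 0. With no filter on the mean, the median over all 81 members was 1.56, with 72 above and 9 below 0, and that over all genes was -0.0018. These 81 had still passed the detection rule. Some met it only through Ntsr2 AKO mice (such as Ighv1-55, Ighv2-9 and Igkj1) and Ighv1-50 only through controls, so their direction was set by the rule and the count is a description. Of the 39, Ighv1-53, at 3.68, 9.28 and 9.59 in controls and 98.1, 4.15 and 0 in Ntsr2 AKO mice, was the one not above 0.

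**Figure D5:**
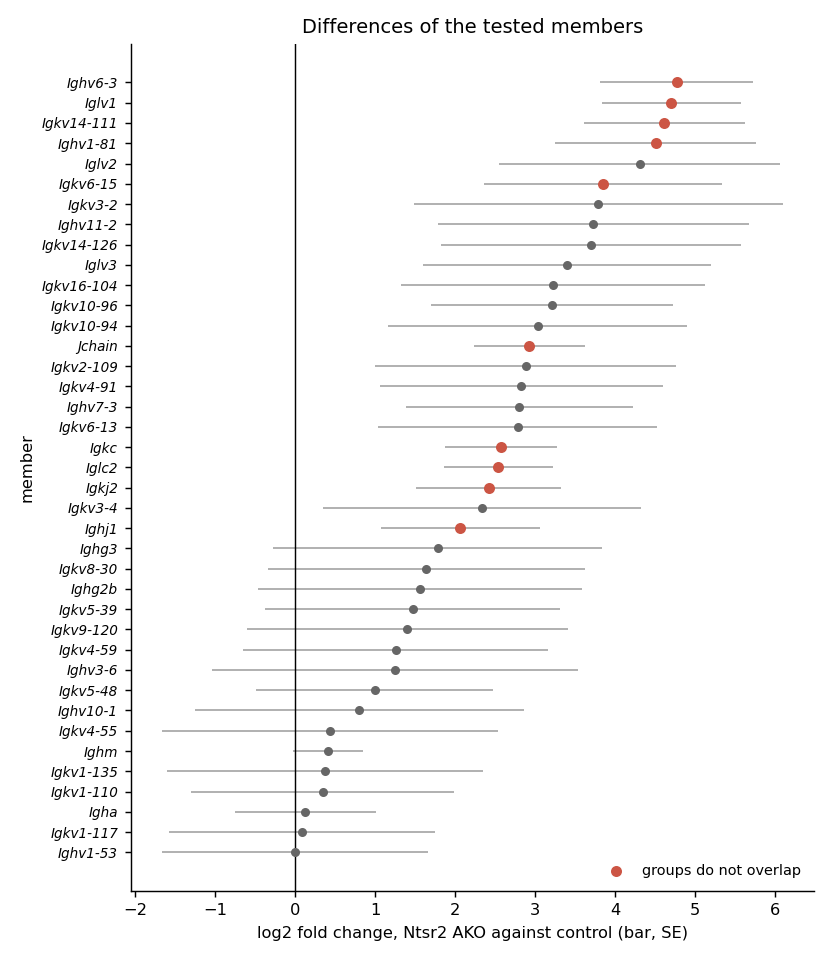
Limma log2 fold change (Ntsr2 AKO against control, x axis) with its standard error (bars) for the 39 tested members, in order of size; red points mark the 10 members whose groups do not overlap. The points run from 0 for Ighv1-53 to 4.77 for Ighv6-3, and the standard errors of the V genes are wider than those of Igkc, Iglc2 and Jchain.

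Of single members, Jchain had a limma log2 fold change of 2.93 (SE 0.69, adjusted p = 0.520), Igkc 2.57 (SE 0.70, adjusted p = 0.522) and Iglc2 2.54 (SE 0.69, adjusted p = 0.522). Iglv1 had the smallest limma p of the members and still an adjusted p of 0.499. The call depended on the tool. In DESeq2 on the recovered reads, 7 members passed an adjusted p of 0.05, all higher (Jchain, Igkc, Iglc2, Iglv1, Ighv1-81, Ighv6-3 and Igkv14-111), against 0.408% of all genes called higher. Of these, Ighv1-81, Ighv6-3 and Igkv14-111 reached the mean needed for the test only through the Ntsr2 AKO mice. Their calls describe how they were picked. DESeq2 gave no adjusted p for some of the tested members. Its adjusted p was 0.00143 for Jchain, 0.00303 for Igkc, 0.0349 for Iglc2 and 5.5e-07 for Iglv1. For Iglv2, whose groups overlapped, the DESeq2 adjusted p was 0.695. Reads of the near copies Iglv1 and Iglv2 can be split between them, so the value of Iglv1 alone is uncertain. In edgeR's quasi-likelihood test 0 members passed the adjusted threshold. At an unadjusted p under 0.05 it had 15 members, all higher, where 531 of all 16157 genes were higher. For Jchain, Igkc, Iglc2 and Iglv1 the adjusted p reached 0.974 in the least favourable alternative.

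Transcripts of the cells that make antibodies moved with only some of these genes. A plasma cell list of 15 genes, all tested, had 0 genes past an adjusted p of 0.05 in limma and edgeR and 1 in DESeq2 (Mzb1), and its median log2 fold change was -0.06. DESeq2 gave no adjusted p for Tnfrsf17, Irf4 and Derl3. Mzb1, a chaperone of the endoplasmic reticulum that helps assemble IgM and is typical of plasma and B-1 cells, had 12.9, 4.13 and 18.2 normalized counts in controls and 124, 78.8 and 29.3 in Ntsr2 AKO mice. The groups did not overlap (limma log2 fold change 2.60, SE 0.76, adjusted p = 0.522; DESeq2 adjusted p = 0.0459), and Mzb1 was singled out after its values were seen. Of the 15 genes, 9 had a limma log2 fold change below 0. Among them were Sdc1 (-0.66), Slamf7 (-0.56), Prdm1 (-0.52) and Creld2 (-0.42), which overlapped between the groups. Of the 6 above 0, Eaf2 (1.01) was also higher without overlap. The most abundant genes of the list are also used by other cells of WAT. Xbp1, a transcription factor of secretory cells, had 47659, 26029 and 21053 in controls and 28640.4, 9731 and 14589 in Ntsr2 AKO mice. Irf4, which plasma cells need and adipocytes and macrophages also express, had 2731, 2147 and 1232 in controls and 17644, 1652 and 1216 in Ntsr2 AKO mice. Ntsr2 AKO 3 was thus the highest mouse for Irf4 as it was for most immunoglobulin genes, while Ntsr2 AKO 4 lay within the range of the controls and Ntsr2 AKO 5 just below the lowest of them. Txndc5 and Ell2, the other abundant genes of the list, overlapped between the groups, between 5994 and 8694 and between 2880.3 and 4258 normalized counts. Tnfrsf17, the receptor BCMA on plasma cells, was at 7.36, 8.25 and 13.4 in controls and 10.3, 13.5 and 30.4 in Ntsr2 AKO mice, with overlap.

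Genes of B cells that do not secrete antibody were highest in control 3 in most cases. Of 16 B cell genes tested, 0 passed the adjusted threshold in limma or edgeR, 1 had an unadjusted limma p under 0.05 (Cd22, lower), and the median log2 fold change was -0.00. DESeq2 gave no adjusted p for Ms4a1, Cd79a, Pax5, Blk, Fcmr, Fcer2a and Tnfrsf13c, and 0 of the others passed there. The sum over the list was 1955 in control 3 and between 313 and 558 in the other 5 mice. The most abundant of them overlapped between the groups. Bank1, an adaptor of B cell signalling, had 137, 88.7 and 115 in controls and 175, 134 and 76.9 in Ntsr2 AKO mice, with its highest level in Ntsr2 AKO 3. H2-Ob had 241, 44.4 and 49.9 against 100.1, 65.3 and 101, and Cd79b, a part of the B cell receptor, had 112, 35.1 and 31.7 against 78.4, 66.3 and 100.2. Cd22, a brake on that receptor, had 194, 105 and 34.5 against 18.6, 14.5 and 33.4, lower without overlap. Cd79a, the partner of Cd79b, was picked after its values were seen, as was Pax5. Cd79a had 231, 11.3 and 13.4 normalized counts in controls and 36.1, 37.3 and 23.3 in Ntsr2 AKO mice. Pax5, the factor that holds B cell identity and is switched off in plasma cells, had 124, 0 and 0 against 6.19, 7.26 and 4.05. Control 3, with the highest B cell transcripts, had a Jchain level of 125 and an Igkc level of 298, within the range of the other controls. The same mouse had 948 normalized counts of the lymph node chemokine Ccl21a and 111 of Glycam1, a glycoprotein of lymph node vessels, against at most 193 and 5.06 in the other mice. Without control 3 the log2 differences were 2.69 for Igkc, 2.81 for Jchain and 3.43 for Iglv. Without control 5, which held the muscle transcripts, they were 2.97, 3.52 and 5.67.

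Of the 3 genes of the B-1 cell list, Zbtb32 had 12.9, 26.8 and 34.5 normalized counts in controls and 46.4, 48.7 and 52.6 in Ntsr2 AKO mice, without overlap, with a limma log2 fold change of 1.07. Bhlhe41 and Cd5 went the other way, with limma log2 fold changes of -0.60 and -0.25, and overlapped between the groups. The median of the list was -0.25, and 0 of the 3 had an unadjusted p under 0.05 in limma. Rag2, Dntt, Vpreb1 and Igll1, which mark B cell precursors, reached at most 15.2 normalized counts in any mouse, and Rag1 was not analysed here.

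The signals that keep plasma cells alive were measured in the same libraries. Of 13 tested genes for survival and homing, 0 had an unadjusted p under 0.05 in limma and 0 passed the adjusted threshold in DESeq2 or edgeR, and the median log2 fold change was -0.37. For Il6 and Ccr9 DESeq2 gave no adjusted p. Cxcl12, the chemokine that retains plasma cells in bone marrow, had 8115, 9155 and 7663 normalized counts in controls and 10181, 7625 and 7028 in Ntsr2 AKO mice. Cxcl13, which draws B cells, was highest in control 5 at 2909 and between 615 and 1127 in the other mice. Tnfsf13b (BAFF) and Tnfsf13 (APRIL), the ligands of Tnfrsf17 and its relatives, overlapped between the groups, with log2 fold changes of 0.20 and 0.12.

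Receptors that bind or carry antibody did not follow the immunoglobulin genes. Of 10 tested, 0 had an unadjusted p under 0.05 in limma and 0 passed the adjusted threshold in DESeq2 or edgeR. Fcgrt, the receptor that protects IgG from breakdown, had 18093, 16527 and 15692 normalized counts in controls and 18139, 19888 and 16104 in Ntsr2 AKO mice. The IgG receptor Fcgr3 and the signalling chain Fcer1g were highest in control 4, as were the macrophage genes Lyz2, C1qa, Mrc1, Csf1r, Adgre1 and Cd68. Pigr, which carries polymeric IgA and IgM across epithelia, was lower without overlap, with 29.5, 27.9 and 30.7 in controls and 14.5, 12.4 and 0 in Ntsr2 AKO mice (limma log2 fold change -2.36, unadjusted p = 0.0763). It had no adjusted p in DESeq2.

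The genes most like the immunoglobulin total across the mice depended on whether Ighm was counted. Among 6784 tested genes outside the members whose log2 values spanned at least 1, Cdh2 (r = 0.99), P2rx7 (r = 0.95) and Gm3912 (r = 0.94) had the highest Pearson correlations with the log2 total. For the total without Ighm, a comparison chosen after the values were seen, they were Sec14l4, Gm14378, 4933411K16Rik and Mal2, with r from 0.962 to 0.995. Mzb1 ranked 5 of 6784 (r = 0.96), and Cd79a had an r of 0.02. For Ighm alone, Mzb1 had an r of 0.11 and ranked 2717. All are over the same 6 mice, whose differences in depth, muscle and lymphoid transcripts they share, and are a description only.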

How the data were processed

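RNA-seq of WATs was analysed for 3 control and 3 Ntsr2 AKO mice, grouped by the labels. The values that the authors deposited are normalized counts (a signal per gene and mouse), which are read numbers scaled by 1 size factor per mouse. The submitters' processing notes name HISAT2, StringTie and mm10, and the paper's methods also name Trimmomatic and DESeq2. The read layout, strand setting and treatment of reads that match several V genes were not given in the sources used here.

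Each column was divided by the step of its low values, and 100% of the values came out whole (tolerance 0.01). Values were tested as log2(normalized count + 1) with limma 3.58.1 (lmFit, eBayes with trend) in R 4.3.3 over all genes with a mean of at least 10, adjusted by Benjamini-Hochberg and called at 0.05. Since the deposited values are no counts, edgeR 4.0.16 and DESeq2 1.42.0 on the recovered reads were alternatives. These procedures were tested on simulated data. Class totals are sums over the members, compared as log2(sum + 1) by two-sided exact permutation tests.

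The members and lists were chosen with earlier results of these data known. Genes named are the constant region genes and Jchain, the 5 Ighv, 5 Igkv and 2 Iglv genes with the highest mean, the leading Ighv and Igkv gene of each mouse, the 5 members with the smallest limma p and, of each list, up to 4 of the most abundant genes, of which some are given only within the counts of their list. Other genes were named after their values were seen. Jchain, Adgre1, Fcmr and Tent5c were found under older symbols through RefSeq synonyms. Positions and sequences are from GENCODE M21 (GRCm38, the same assembly as mm10), which held all 81 members. The precision is set by the number of mice, and for most V genes also by their few reads.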

Additional observations from a re-analysis of the deposited data

How the results depend on the processing

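The 8 classes that separated the groups were higher in Ntsr2 AKO mice in all alternatives run, with another scaling, without the most abundant member and without each mouse in turn. The lowest of their log2 differences, 0.55 for Ighj, came from a scaling by total reads, a scale on which a pseudocount of 1 outweighs small values. Over all genes, the calls at the adjusted threshold, 1 in limma, numbered 0 without a filter, 0 with the replicate block, 0 in edgeR and 220 in DESeq2, and 0 to 0 when single mice were left out. The number of immunoglobulin genes past it, 0 in limma, was 7 in DESeq2, and the cause was not tested. At an unadjusted p under 0.05 it was 10, all higher, where 497 of all 16157 genes were higher. Without Ntsr2 AKO 3 it was 7 (592 of all genes higher), without control 3 it was 8 (607) and without control 4 it was 7 (488). Without control 5 it was 13 (497 of all genes higher), without Ntsr2 AKO 4 it was 17 (233) and without Ntsr2 AKO 5 it was 10 (319).

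Genes at low counts or carried by 1 mouse changed direction. The log2 fold change of Igha was 0.13 in limma, -0.091 in edgeR and -0.10 in DESeq2, and -0.74 to 0.68 without single mice. Leaving out single mice gave -0.57 to 3.77 for Ighg3, -0.39 to 3.42 for Ighg2b, -1.18 to 2.46 for Ighv3-6, -1.04 to 2.28 for Igkv1-110, -0.24 to 2.29 for Igkv5-48 and -1.24 to 2.18 for Igkv1-135. The class totals moved from -1.02 to 3.60 for Ighg and from -0.74 to 0.68 for Igha. Igkv1-110 was -0.66 with a pseudocount of 0.1. Ighv1-53, at -0.00 in limma, was 0.46 with a pseudocount of 5, 2.17 in edgeR and 2.19 in DESeq2, and -1.82 to 1.5 without single mice. The negative ends came without Ntsr2 AKO 4 for the IgG genes and without Ntsr2 AKO 3 for Ighv3-6, Igkv1-110 and Ighv1-53, without control 3 for Igha and Igkv1-135, and without control 5 for Igkv5-48.

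Control and Ntsr2 AKO mice share the numbers 3, 4 and 5. Deviations of mice with the same number from their group means correlated across genes at 0.45, -0.24 and 0.41. Mice with different numbers gave -0.52 to 0.26, so 0.45 and 0.41 lay above all of these and -0.24 did not. Since the same-number values differed in sign, the numbers were not taken as pairs in the main test, and a block on them was an alternative. With the block, 0 immunoglobulin genes were called after adjustment. At an unadjusted p under 0.05 there were 12, all higher, where 437 of all 16157 genes were higher. The differences themselves cannot change under a block that holds 1 mouse of each group per number.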

Other observations

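Other cell types in the libraries were read from marker lists as values. Of 8 T cell genes, all had their highest level in control 3, with Cd8a at 286, 34.0 and 34.5 normalized counts in controls and 43.4, 96.4 and 22.3 in Ntsr2 AKO mice. All 6 macrophage genes were highest in control 4, the mouse with the lowest Igkc and Jchain, where Lyz2 had 44527 normalized counts against 11113 to 37000 in the other mice. Of 9 mammary epithelium genes, the 8 present in the table were all highest in control 3, with Krt8 at 73.6 there and at most 7.67 elsewhere. Neither the T cell, the macrophage nor the adipocyte list held a gene past the adjusted threshold in limma, DESeq2 or edgeR, or with an unadjusted limma p under 0.05. Krt8 and Cldn3, the tested mammary epithelium genes, the 3 tested germinal centre genes, the 3 tested lymph node stroma genes and the 8 skeletal muscle genes gave the same counts of 0. For DESeq2 this leaves out Krt8, Cldn3, Ccl21a, Glycam1, Acta1, Ckm, Myh4, Myh1 and Actn3, which had no adjusted p there. The adipocyte genes had a median log2 fold change of 0.01, with Fabp4 at 771426, 997811 and 632872 in controls and 819109, 1016136 and 952064 in Ntsr2 AKO mice.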
